A study of Mus musculus with 2 samples.

Results

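The type I hair shaft keratins are the acidic keratins of the hair fibre. Their 7 members on the array, Krt31, Krt32, Krt33a, Krt33b, Krt34, Krt35 and Krt36, were taken by gene name from the non-control spots of both arrays, out of 24323 named genes in all. Both tissues, P0 tooth and P0 skin, came from wild-type (WT) mice at postnatal day 0, with 1 Agilent one-colour array per tissue. The labels give no allele, treatment, strain or number of pooled animals, so neither the animals behind each array nor the spread between them is known. With 1 array per tissue no difference has a replicate check, no test was run and no p-value is given. Fewer cells of a type and less RNA per cell cannot be told apart in whole tissue.

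Keratins assemble as obligate pairs of a type I and a type II chain, and the hair keratins of both types form the filaments of the hair shaft, where they are cross-linked with keratin-associated proteins. In the follicle Krt35 is known as an early chain of the hair matrix, precortex and cuticle, Krt31, Krt33a, Krt33b and Krt34 as chains of the cortex, and Krt32 as a cuticle chain. Krt36 is known from nail and from the filiform papillae of the tongue. The study was about Sox21, a transcription factor, and how dental epithelium stays apart from hair-forming epithelium. The comparison here asks which hair keratins could be measured in a normal tooth and how far they lie from their level in skin.

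Values are log2 processed intensities after subtraction of the 75th percentile of each array (428 intensity units for tooth, 276 for skin), and a difference is skin minus tooth on that log2 scale. Values of different probes are not compared with each other, because probes differ in how strongly they bind. The errors given with single values are the SD that the scanner software estimated for the spot, on the log2 scale, and they cover the spot and its background alone. A probe was called well above background by the same software. The lowest such value was -4.52 for tooth and -3.73 for skin.

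The tissue labels were checked against marker genes. All 6 ameloblast markers and all 3 odontoblast markers were higher in tooth, and 5 of the former and 3 of the latter were not well above background in skin. All 4 epidermis markers were higher in skin, by 8.39 to 12.89. In tooth they were still well above background, at -0.80 for Krt1, 1.36 for Krt10, 1.44 for Lor and -3.21 for Flg, and their part in the keratin values of the tooth array was not tested.

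The signal of each member rests on 60-base probes from the array design. The following lines show bases 31 to 60 of the brightest probe of each gene, read from the array files on the transcript strand, because the letters of a probe bear on whether near-identical keratins could share signal. Capitals mark AATAAA, the polyadenylation signal, which was found in the Krt31 and Krt36 probes.
Krt33a: aacatcagtgaacttaacttttctttgtta
Krt33b: caccggcttgtatctggtggtctgagagat
Krt34: actccttcagttgaaggttgagtgtctttt
Krt31: ccctcccttgtaatctcccAATAAAcattt
Krt32: atgccaagctggctgcagatgacttcagaa
Krt35: gaaatttaatacagcgtatctgagggcggg
Krt36: tattcccAATAAAgtgttctcttggcatag
The full probes had little in common with other probes on the array. The longest run of bases that any of these 7 probes shared with another probe was 13 to 16 bases. At the best ungapped offset, the closest other keratin probe matched the Krt31 probe at 24 of 46 bases (52.2%) and the Krt35 probe at 19 of 40 bases (47.5%), and the other 5 lay between these shares. The comparison covers probes only and was not made against whole transcripts.

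All 7 members were higher in skin than in tooth, each by at least 2-fold, where 14.2% of the 17409 genes well above background on at least 1 array had at least 2-fold more signal in skin and 15.5% at least 2-fold more in tooth. Of the members, 5 were at least 16-fold higher in skin, against 3.04% of all genes. Krt33a, Krt33b and Krt34 were well above background on the skin array only, which held for 4.25% of all genes. The median difference of the 7 members was 8.33, or 6.54 with dim tooth values set at their bound, while the median of all genes was -0.04.

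**Figure D1:**
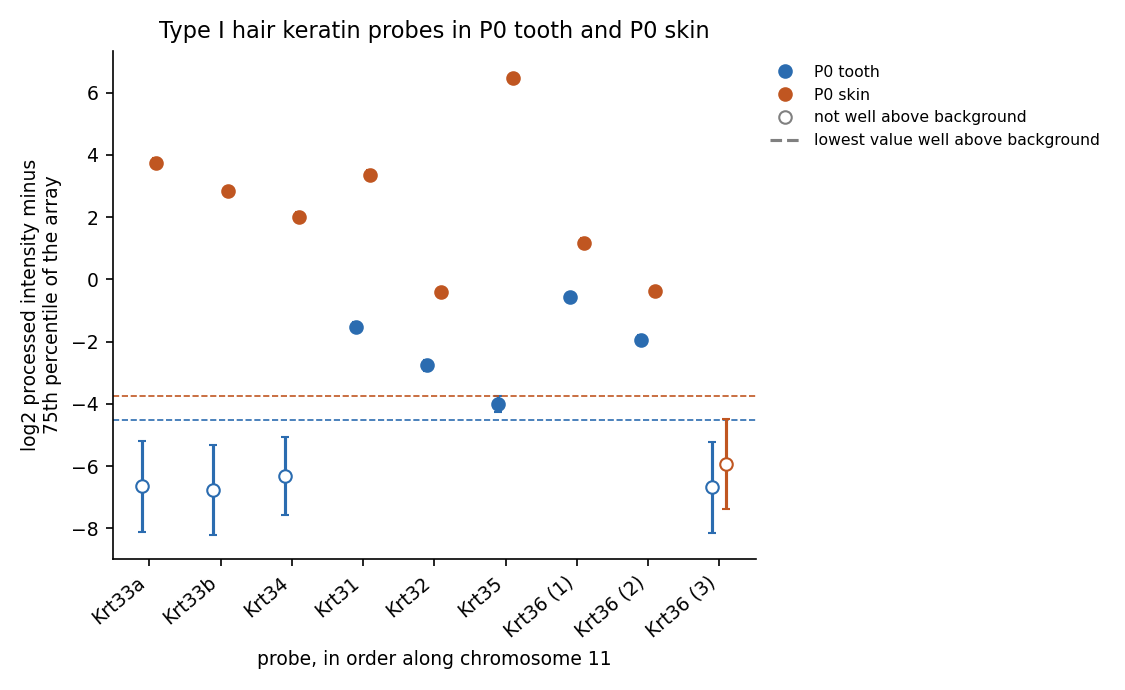
Scaled log2 value of each member probe (y axis) in P0 tooth and P0 skin, in order along chromosome 11 (x axis), with the 3 Krt36 probes numbered in that order. Bars are the error SD of the scanner software, open points are not well above background, and the dashed lines are the lowest value well above background on each array. The tooth values of Krt33a, Krt33b and Krt34 lie below the tooth line, while Krt31, Krt32, Krt35 and the brighter Krt36 probes lie above it.

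Krt35, the early shaft keratin, had the largest difference among the members measured on both arrays. Its scaled value was -4.003 ± 0.27 in tooth and 6.46 in skin, from processed intensities of 26.7 and 24364. The difference was 10.47 ± 0.31, or 1415-fold, and stood at rank 5 from the top among 15271 genes measured on both arrays. The tooth value stood just over the lowest value called well above background there, so this fold leans on a dim spot. With another background correction, normexp, which adds an offset before the logarithm, the difference was 8.58.

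Of the cortex keratins, Krt33a, Krt33b and Krt34 were near background in tooth, and Krt31 was not. Krt33a read -6.65 in tooth, not well above background, and 3.75 in skin, from intensities of 4.26 and 3718, which is at least 308-fold higher in skin. Krt33b read -6.77 in tooth, not well above background, and 2.84 in skin, from 3.91 and 1975, which is at least 164-fold. The tooth intensities of both were surrogates, values that the software puts in place of signals too dim to measure. Krt34 read -6.31 in tooth and 2.02 in skin, from 5.38 and 1120, at least 92.7-fold higher in skin. Its tooth spot was no surrogate and passed the more lenient call of signal over background, although not the stricter one. So the 3 genes had only an upper limit in tooth. Each "at least" holds only for the scaling and background correction used here. With normexp the folds were lower, at 85.0 for Krt33a, 46.1 for Krt33b and 21.9 for Krt34.

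Krt31, in contrast, was measured in tooth. It read -1.51 ± 0.15 there and 3.37 in skin, from intensities of 149.7 and 2858. The difference was 4.89 ± 0.21, or 29.6-fold, at rank 155 of 15271. Krt32, the cuticle keratin, read -2.76 ± 0.18 in tooth and -0.41 in skin, from 63.2 and 207.4, a difference of 2.35 ± 0.23 or 5.08-fold, at rank 584.

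Krt36, known from nail and tongue, had the smallest difference of the members, and it was the only one with several probes. Its brightest probe read -0.57 ± 0.15 in tooth and 1.18 in skin, from intensities of 287.6 and 626.3. The difference was 1.75 ± 0.21, or 3.37-fold, at rank 874 of 15271. The probe beside it, for the same transcript, went from -1.93 in tooth to -0.38 in skin, a difference of 1.56 or 2.94-fold. Both probes gave the same direction, 0.20 apart. The less bright of them shared 36 of 46 bases (78.3%) with a Krt39 probe at the best ungapped offset, and that Krt39 probe reached the call in neither tissue. Neither did the third Krt36 probe, designed on a separate cDNA.

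The software errors of the members measured on both arrays were 0.21 to 0.31, below every one of their differences. Scaling also set the backgrounds apart. The median of the negative-control spots was -6.56 in tooth and -5.81 in skin after scaling, a difference of 0.75. With scaling on spike-in transcripts instead of the 75th percentile, the median of all genes moved by -0.62. Krt36 then differed by 1.13, Krt32 by 1.72, Krt31 by 4.26 and Krt35 by 9.84, and each stayed higher in skin.

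**Figure D2:**
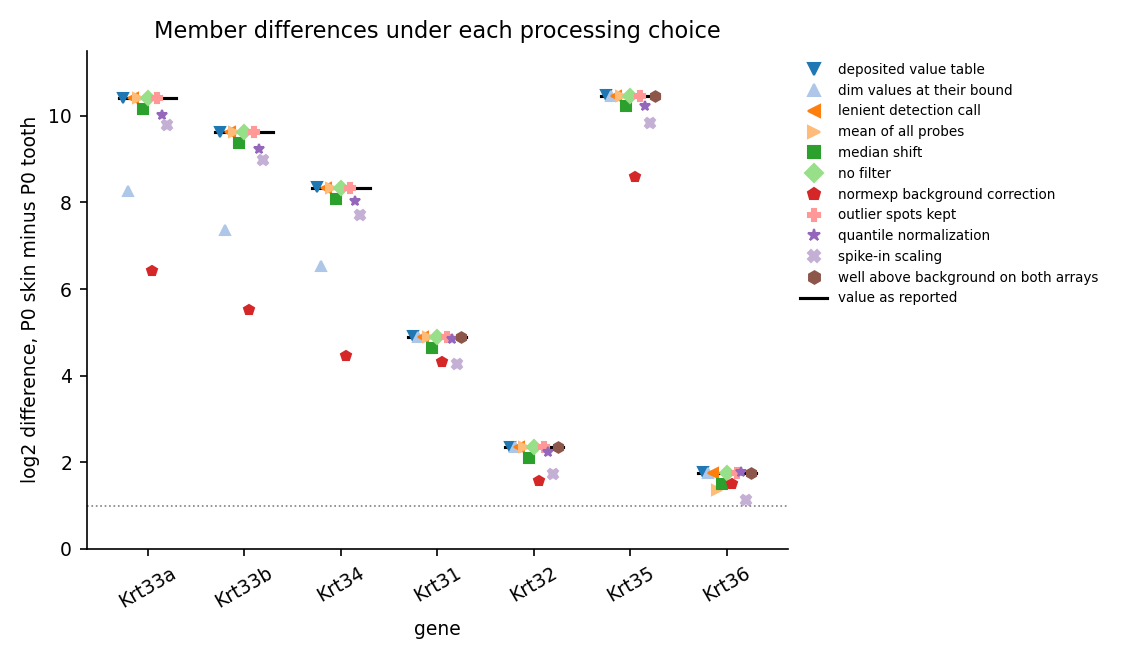
Skin minus tooth log2 difference (y axis) of each member (x axis) as reported, drawn as a black line, and under the 11 processing alternatives, drawn as symbols. Every symbol lies above the dotted 2-fold line, from 1.13 for Krt36 to 10.48 for Krt35, and the widest spreads are those of Krt33a, Krt33b and Krt34, whose tooth values were dim.

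Position was not used to choose the members. Their 9 probes lay within 93.9 kb of chromosome 11, at chr11:99872578-99966454 in mm9, the build of the array files. All 9 were on the minus strand, and no probe of any other gene lay between them. The order along the chromosome was Krt33a, Krt33b, Krt34, Krt31, Krt32, Krt35 and Krt36. The genes not well above background in tooth, Krt33a, Krt33b and Krt34, lay side by side at one end. The order of their differences cannot be read from dim tooth values. Among the members measured on both arrays the differences ran 4.89 for Krt31, 2.35 for Krt32, 10.47 for Krt35 and 1.75 for Krt36. The largest of these 4 thus stood between the smallest, with the Krt35 probe 5.55 kb from that of Krt32.

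The nearest flanking genes differed by more than Krt36 on their brighter probes. On one side, 17.9 kb away, Krtap17-1, a keratin-associated protein gene, went from -0.24 in tooth to 3.28 in skin, a difference of 3.52. On the other side, beyond a long non-coding region, came Krt13, the keratin of wet stratified epithelia. Its brighter probe had a tooth value of 3.55 and a skin value of 5.90, which differ by 2.36, and the other Krt13 probe differed by 0.44. Whether a probe lies in an exon or an untranslated region was not analysed here.

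**Figure D3:**
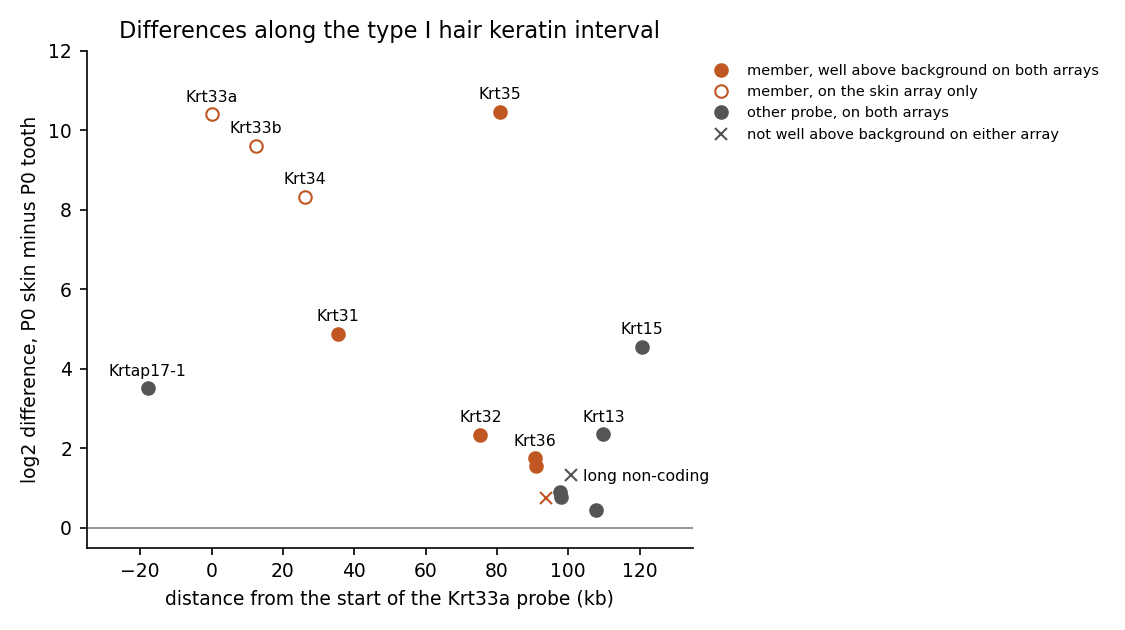
Skin minus tooth log2 difference (y axis) of the probes in and around the type I hair keratin interval by distance from the Krt33a probe in kb (x axis). Orange points are members and grey points other probes, open points were well above background on the skin array only and crosses on neither array. The open points of Krt33a, Krt33b and Krt34 sit together on the left, drawn against dim tooth values, and Krt35 at 10.47 stands between Krt32 at 2.35 and Krt36 at 1.75.

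Promoter sequence from RefSeq, build GRCm38.p6, was matched by symbol for 5 of the 7 members, and Krt33a and Krt35 had no entry. The 250 bases before the annotated start of each are shown, because their order of motifs differs between Krt36 and the other 4. All are on the minus strand and read 5′ to 3′. Capitals mark every match, on either strand, to the strings searched. These were TATAAA (one form of the TATA box) and CTTTG followed by AA, AT, TA or TT (a Lef/Tcf-type site). TTTATNA or TTTATNG (a Hoxc13-type site) and GACGC (a Foxn1-type site) were also searched. AGTCCTG, a run that was added after the sequences were seen, is marked too.
Krt33b, chr11:100029869-100030118: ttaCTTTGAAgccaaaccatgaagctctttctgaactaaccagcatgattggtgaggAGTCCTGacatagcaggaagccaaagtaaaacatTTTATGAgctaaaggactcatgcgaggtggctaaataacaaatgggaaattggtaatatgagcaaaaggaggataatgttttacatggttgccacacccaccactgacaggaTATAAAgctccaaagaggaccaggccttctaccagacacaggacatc
Krt34, chr11:100041555-100041804: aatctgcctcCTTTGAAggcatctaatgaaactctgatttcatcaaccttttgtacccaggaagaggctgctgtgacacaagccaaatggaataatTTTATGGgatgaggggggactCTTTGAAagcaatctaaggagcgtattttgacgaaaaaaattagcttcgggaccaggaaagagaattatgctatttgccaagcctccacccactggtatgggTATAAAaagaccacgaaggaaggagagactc
Krt31, chr11:100050552-100050801: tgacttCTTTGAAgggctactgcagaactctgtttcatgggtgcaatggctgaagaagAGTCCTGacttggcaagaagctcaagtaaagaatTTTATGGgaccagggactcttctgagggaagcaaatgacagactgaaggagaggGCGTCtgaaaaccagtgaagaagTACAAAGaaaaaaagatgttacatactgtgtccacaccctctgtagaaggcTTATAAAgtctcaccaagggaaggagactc
Krt32, chr11:100088270-100088519: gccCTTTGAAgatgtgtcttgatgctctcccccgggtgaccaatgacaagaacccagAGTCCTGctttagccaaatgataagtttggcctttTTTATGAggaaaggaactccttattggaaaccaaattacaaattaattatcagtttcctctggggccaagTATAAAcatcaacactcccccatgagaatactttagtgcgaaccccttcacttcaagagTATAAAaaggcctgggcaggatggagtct
Krt36, chr11:100105627-100105876: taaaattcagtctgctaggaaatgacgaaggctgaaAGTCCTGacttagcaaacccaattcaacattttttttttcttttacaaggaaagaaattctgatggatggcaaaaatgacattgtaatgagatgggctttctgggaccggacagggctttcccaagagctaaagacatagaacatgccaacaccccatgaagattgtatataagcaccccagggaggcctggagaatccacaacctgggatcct
TATAAA was in 4 of the 5 promoters and in 13.6% of all 32851 promoters of the table, which span 300 bases each, including 50 after the start. The Lef/Tcf-type site was in 4 of 5, against 16.9%, and the Hoxc13-type site in 4 of 5, against 22.5%. GACGC was in Krt31 alone of the 5, against 27.2%. The same 4 genes, Krt31, Krt32, Krt33b and Krt34, held the first 3 motifs together, as did 2.23% of all promoters. Krt36 held none of these 3 strings in the window. Its printed bases include tatataa, which the exact string TATAAA does not match, and looser forms of the TATA box were not searched. Related keratins held several of the same letters: TATAAA was in 7 of 7 inner root sheath, 5 of 13 other type I and 1 of 2 type II hair keratin promoters at hand, and the Hoxc13-type site in 4 of 7, 8 of 13 and 2 of 2. The Lef/Tcf-type site was in 2 of 7, 2 of 13 and 0 of 2. Krt25 of the inner root sheath and Krt42 of the other type I keratins also matched all of the first 3 motifs. Neither a single motif nor the 3 together is therefore shown to be particular to the hair shaft members.

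The positions of the Lef/Tcf-type and Hoxc13-type matches were alike as well, and that of TATAAA was less so. The first Lef/Tcf-type match began at -247 in Krt33b, -240 in Krt34, -244 in Krt31 and -247 in Krt32, counted in bases before the start. The Hoxc13-type match on the forward strand began at -159, -154, -158 and -158 in the same order. TATAAA began at -47, -31, -29 and -29, and Krt32 held another at -88. In Krt31 the TATAAA overlapped a second Hoxc13-type match on the other strand. AGTCCTG, chosen after the fact, was in Krt33b, Krt31, Krt32 and Krt36, beginning at -193, -192, -193 and -214. It was in 5.78% of all promoters, but it was picked from these same sequences, so its count among the members was set by that choice. It was also in 1 of 7 inner root sheath, 2 of 13 other type I and 0 of 2 type II hair keratin promoters. These matches are letters in a window and not measured binding. Compared without gaps at the same distance from the start, pairs of the 5 promoters were identical at 21.3% to 34.0% of bases. A small shift between promoters hides likeness from this count, so it does not measure how similar they are. No alignment was made, and whether the shared spacing reflects wider sequence likeness was not tested. Among genes holding the 3 motifs were Krt33b and Krt34, not well above background in tooth, and also Krt31 and Krt32, which were measured there.

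**Figure D4:**
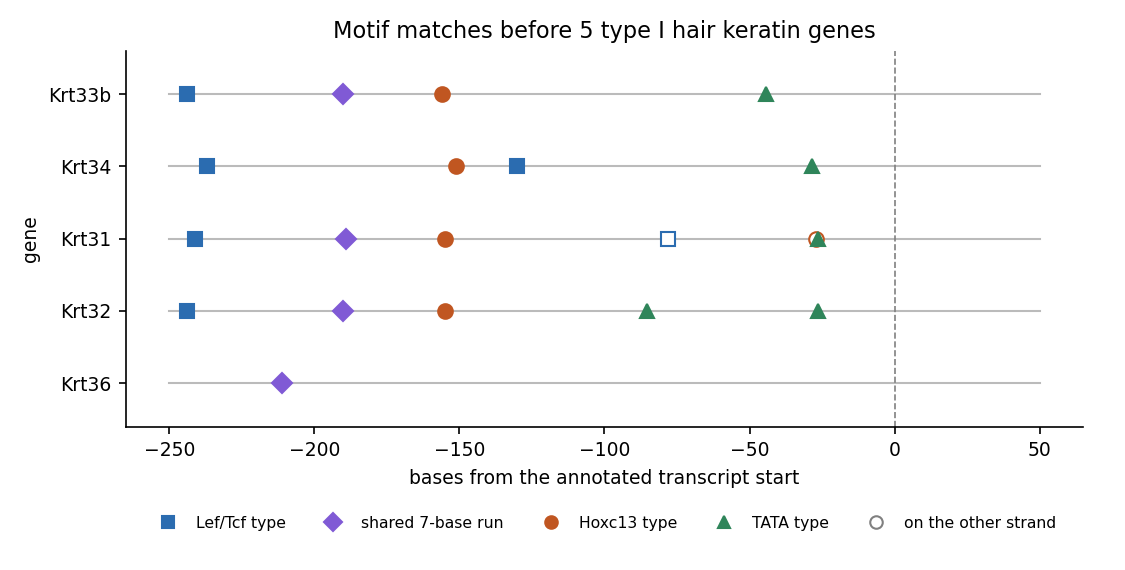
Motif matches (symbols) by position in bases from the annotated start (x axis) in the 5 promoters at hand (y axis). Filled symbols are on the strand of the gene and open symbols on the other strand. Krt33b, Krt34, Krt31 and Krt32 share a Lef/Tcf-type match near -247 to -240, a Hoxc13-type match near -159 to -154 and TATAAA nearer the start. Of the strings drawn, Krt36 shows only the 7-base run chosen afterwards, and looser forms of the TATA box were not searched. The Foxn1-type match of Krt31 is not drawn.

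Factors known to act on hair keratin promoters were among 14 regulators of the hair matrix and shaft. All 14 were measured on both arrays, 8 had at least 2-fold more signal in skin, 1 had at least 2-fold more in tooth, and their median difference was 1.36. With spike-in scaling, 6 passed 2-fold toward skin and 3 toward tooth, with a median of 0.74. Of all 17409 genes, 1572 passed toward skin and 5648 toward tooth with that scaling, beside 2466 and 2691 without it. Hoxc13, a homeobox factor of the hair shaft, went from -2.46 in tooth to 2.75 in skin, a difference of 5.20. Foxn1, the nude gene, read -3.34 and -0.49, a difference of 2.85. Lef1, a nuclear mediator of Wnt signalling, read 2.38 and 4.16, a difference of 1.79. Hoxc13, Foxn1 and Lef1 were thus higher in skin, without a test. No Tcf gene was among the 14, and whether any of them acts on these promoters was not tested.

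Of the others, Ovol1, a zinc-finger factor of epithelial differentiation, differed by 5.39, Wnt10b, a Wnt ligand, by 2.70, Prdm1, a transcriptional repressor, by 2.41, Foxq1, a forkhead factor of the hair medulla, by 1.48 and Vdr, the vitamin D receptor, by 1.24. Foxq1 and Vdr were under 2-fold with spike-in scaling, at 0.86 and 0.62. Msx2, a homeobox factor of both tooth and hair, went from 5.01 in tooth to 2.61 in skin, a difference of -2.40. Bmp4, a bone morphogenetic protein, differed by -0.86, its receptor gene Bmpr1a by -0.15, Dlx3, a homeobox factor, by -0.76 and Cux1 by -0.21. With spike-in scaling, which moved the median of all genes by -0.62, Bmp4 and Dlx3 passed 2-fold toward tooth, at -1.48 and -1.39. With the mean of all probes Cux1 turned to 0.20. Sox21 itself went from 1.21 in tooth to 1.68 in skin, a difference of 0.47 that turned to -0.16 with spike-in scaling.

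The type II hair keratins, the partner chains, were less uniform. Of 7 named, 6 were measured, 5 had at least 2-fold more signal in skin, Krt84 had at least 2-fold more in tooth as measured, and their median difference was 1.70 beside 8.33 for type I. Among genes measured on both arrays the medians were 1.80 for type II and 3.62 for type I, so much of the gap came with dim tooth values. The count of type II genes at least 2-fold higher in skin was 3 with spike-in scaling, where Krt82 differed by 0.98 and Krt85 by 0.39, and 4 with normexp, where Krt85 differed by 0.91. Krt86 went from -1.38 in tooth to 3.71 in skin, a difference of 5.08. Krt87 read -4.30 and 1.09, a difference of 5.39, from a probe that the array names Krt83 and whose accession RefSeq now gives to Krt87, and Krt83 itself was not measured. Krt81 differed by 1.80 and Krt82, a cuticle keratin, by 1.61. Krt84, known from tongue and nail, was at -3.01 in tooth and not well above background in skin, which is at least 1.65-fold higher in tooth. With normexp its difference was only -0.04, so its direction rests on dim values.

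Krt85, known as the early type II partner of Krt35, depended on the probe. Its brightest probe read 3.83 in tooth and 4.84 in skin, 1.01 higher. The remaining probes went from -0.30 to 3.16, a difference of 3.46, and from -4.29 to 4.92, a difference of 9.22. With the mean of all probes Krt85 differed by 4.56. It would then be the middle value of the 5 type II genes measured on both arrays, above the 3.62 of type I. The order of type I and type II among genes measured on both arrays thus rests on the Krt85 probe.

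**Figure D5:**
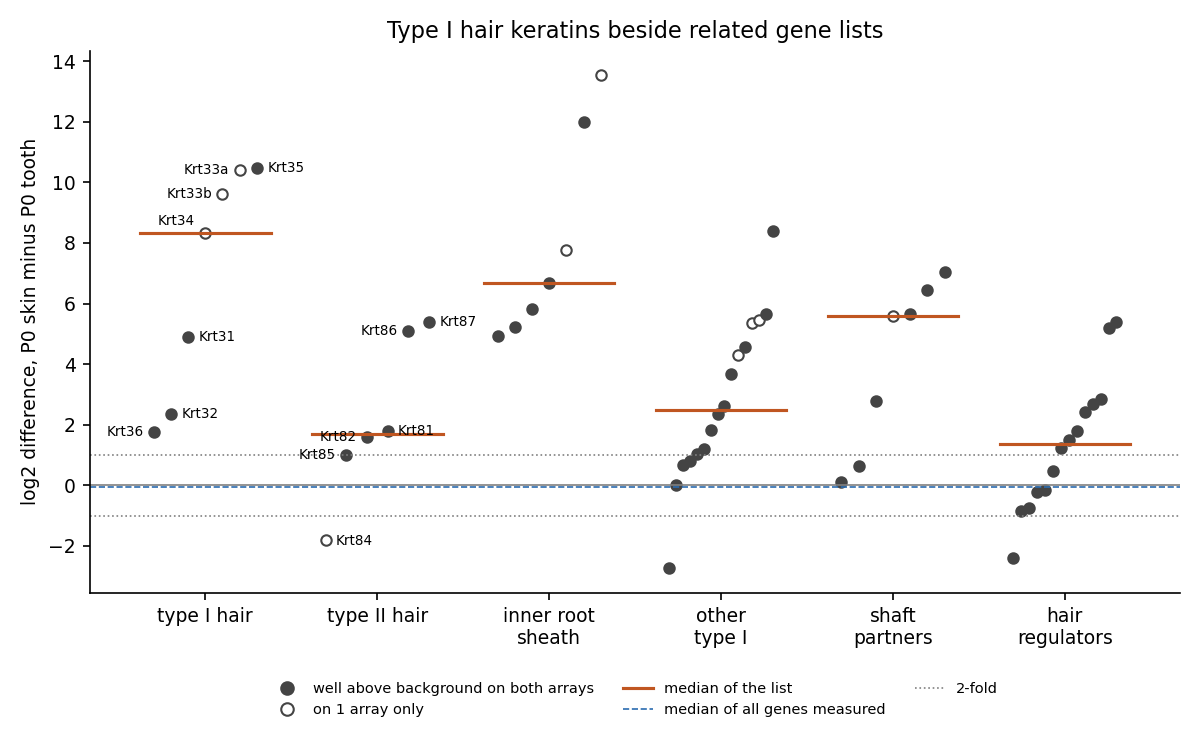
Skin minus tooth log2 difference (y axis) of each measured gene in 6 lists (x axis), ordered by size within a list. Open points were well above background on 1 array only, orange bars are list medians and dotted lines mark 2-fold. All 7 type I hair keratins lie above the 2-fold line with a median of 8.33, while the type II hair keratins have a median of 1.70. Over the filled points alone these medians are 3.62 and 1.80, with Krt85 drawn on its brightest probe.

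Among the other keratins, 7 of 8 inner root sheath keratins were measured, and all 7 were at least 16-fold higher in skin (6 with normexp). Their median difference was 6.68, beside 8.33 for the type I hair keratins. This 6.68 was the value of Krt72, from a probe that the array names Krt72-ps and that stands as Krt72 through its accession. Of 17 other type I keratins 16 were measured, and 12 had at least 2-fold more signal in skin against 1 in tooth, with a median of 2.48. With dim values at their bound, the medians were 6.54 for the type I hair keratins, 5.83 for the inner root sheath keratins, 2.48 for the other type I keratins and 1.70 for the type II hair keratins. The order of the type I hair and inner root sheath keratins turned with normexp, at 4.45 and 5.28, and among genes measured on both arrays, at 3.62 and 5.83. These medians are descriptions of 1 array per tissue and were not tested against each other.

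The structural partners of the shaft were also mostly higher in skin, 5 of 7 by at least 2-fold. Their median of 5.58 was the value of Dsg4 against a dim tooth spot, and it was 3.48 with dim values at their bound and 2.59 with normexp. S100a3, a calcium-binding protein of the hair cuticle, went from -1.64 in tooth to 5.41 in skin, a difference of 7.06. Tchh, trichohyalin of the inner root sheath and medulla, read -0.29 and 6.16, a difference of 6.44. Gprc5d, a receptor of the hair cortex, read -3.15 and 2.51, a difference of 5.66, and its other probe differed by 3.61. Dsg4, the desmosomal cadherin of the hair shaft, was well above background in skin only, at least 11.1-fold higher there. Its other probe passed the call in neither tissue, and with the mean of its probes Dsg4 differed by 3.16. With normexp the difference of Dsg4 was 2.21.

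Padi3, an enzyme that modifies trichohyalin, differed by 2.79, and Vsig8 differed by 0.63. Tgm3, a transglutaminase that cross-links shaft proteins, differed by 0.10 on its brightest probe, by -0.53 with spike-in scaling and by 2.86 with the mean of its probes. Of 53 keratin-associated protein genes, whose products fill the space between the filaments, 44 were measured, and 39 had at least 2-fold more signal in skin against 0 in tooth, with a median of 4.75. As 22 of the 44 were well above background in skin only, this median also leaned on dim tooth values, and it was 3.03 over the 22 measured on both arrays and 2.97 with normexp.

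By the size of their difference alone, the genes nearest to the median of the 4 members measured on both arrays, 3.62, were Neb at 3.63, Smoc1 at 3.63, Padi4 at 3.60, Il1f10 at 3.60 and Retn at 3.60. This likeness rests on 2 arrays.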

How the data were processed

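Total RNA of tooth and skin was labelled with Cy3 by a low-input kit, per the labels, and hybridised to 60-base-probe mouse arrays on the same slide, 1 array per tissue. The labels give P0, the study's methods P1, and the labels were followed. Spot values were deposited as intensities, per the file headers, from Agilent Feature Extraction 10.7.3.1, background-subtracted and detrended, with surrogates at 22.8% of tooth and 25.5% of skin non-control spots. The authors' value table held each processed intensity as a ratio to 1 factor for its array (430.7 and 274.5) and was used as an alternative. The study's methods name a percentile shift in GeneSpring and removal of low-signal entities.

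From the deposited intensities, the spots of a probe were averaged after log2 transformation and each array's 75th percentile over 55675 non-control probes was subtracted. The array number limits the precision. Probes with 8 or more spots had a median SD of 0.08 in tooth and 0.09 in skin. Deposited yes-or-no flags gave the calls well above background, 56.7% of probes in tooth and 52.5% in skin, with 0 and 1 of 308 negative controls called. A gene was represented by its brightest probe and counted as measured if that probe passed the call in either tissue. Where a value did not pass, the fold was set against the lowest value called there, and is written "at least". It is a bound for this scaling and background correction only. Names followed RefSeq by accession (27228 of 33182 named probes, and 8 of the 9 member probes). The software was Python 3.11.15, pandas 2.3.3, numpy 2.4.6 and, for normexp (offset 50), limma 3.58.1 in R 4.3.3. The code was tested on simulated data. The 11 alternatives concerned scaling, background correction, detection call, filter and probe choice.

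The genes named were the members, the type II hair keratin, shaft partner and regulator lists, keratins beside the members, and the 5 genes nearest to the members' median. Members and lists were chosen with earlier results of these data known. Krtap17-1 was named for its position, after its value was seen, and AGTCCTG after the sequences were seen.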

Additional observations from a re-analysis of the deposited data

Results flagged for a closer look

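Signal appeared in a long non-coding region next to Krt36, on the minus strand, that the comparisons do not use. The probe at chr11:99970361-99970420 (mm9) read -1.44 in skin and -2.34 in tooth, and the probe at chr11:99970646-99970705 read -2.80 in skin and -3.57 in tooth, all 4 values well above background and above the medians of the negative controls, -5.81 in skin and -6.56 in tooth. The differences, 0.90 and 0.77, lay near the 0.75 by which those negative-control medians differed, and the part of that offset was not tested. A further probe of the region passed the call in neither tissue.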

How the results depend on the processing

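Of 74 values of single members under 11 alternatives, all were above 0 and at least 1. Each member thus stayed at least 2-fold higher in skin under every alternative that measured it. The alternatives were not combined, so Krt36 was not read with spike-in scaling on its less bright probe or on the mean of its probes. Several alternatives could not move most members, so these values are not separate checks. Krt31, with 1 probe, stayed at 4.89 with the lenient call, without a filter and with the mean of all probes. Krt33a ranged from 6.41 to 10.42, Krt33b from 5.53 to 9.63, Krt34 from 4.45 to 8.35 and Krt35 from 8.58 to 10.48, each lowest with normexp, and Krt31 from 4.26 to 4.90, Krt32 from 1.57 to 2.36 and Krt36 from 1.13 to 1.77. The median difference of the members, 8.33, was 6.54 with dim values at their bound, 4.45 with normexp, 8.02 with quantile normalization, 7.71 with spike-in scaling and 3.62 where both arrays had to be well above background. That last filter leaves 4 members, so the count at least 2-fold higher went from 7 to 4 and the count at least 16-fold higher from 5 to 2. Genes at least 2-fold higher in skin numbered 2466, but 1572 with spike-in scaling, and those higher in tooth 2691, but 5648. Leaving out a replicate was not possible with 1 array per tissue. No paired analysis was possible because each tissue had 1 array. Dim tooth spots set the limit: below -4.52 a tooth value has no order.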
